A study of Mus musculus with 3 samples.

Results

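The cytosolic ribosomal protein genes encode the protein part of the ribosomes that translate nuclear mRNAs. They were taken as the protein-coding genes of the GENCODE M21 basic annotation whose symbol is Rpl or Rps followed by a number, with Rplp0, Rplp1, Rplp2 and Rpsa. The rule leaves out the kinase genes Rps6k, names with -ps and paralogs of the l type such as Rps27l. It gave 78 of 21851 protein-coding genes, 46 of the large subunit and 32 of the small subunit, spread over 19 chromosomes. Sites open to the nuclease DNase I were mapped in MEL cells, a mouse erythroleukemia line that grows as an immortalized culture arrested at an early stage of red cell development. The labels name no treatment and no genotype beyond the line, and they leave age and sex unknown. Biological replicate 1 comprised 2 libraries whose merged alignment gave 1 list of 281600 peaks and 1 of 224643 hotspots, and biological replicate 2 comprised 1 library with 89046 peaks and 82150 hotspots. Peaks are 150 bp sites with a score from 1 to 150 given by the authors, and hotspots are wider stretches of raised cleavage. The labels give the biological replicates as separate biosamples of the same line. Because each has 1 list, no difference between them can be tested, and how deeply the libraries were read is not given in the sources used here.

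A ribosome joins a large subunit, which forms the peptide bond and carries the stalk that recruits elongation factors, to a small subunit, which reads the mRNA. The proteins are needed in equal amounts, and their genes are known as short, strongly transcribed housekeeping genes with GC-rich promoters that hold a stretch of pyrimidines at the start. Red cell precursors need them in large quantity, and loss of 1 copy of several of them is known to cause Diamond-Blackfan anemia, a failure of red cell production. As a check of the cell label, 9 of 10 erythroid genes had a promoter peak in the replicate 1 list and 7 of 10 in that of replicate 2, Gata1, Klf1 and Tal1 in both and the band 3 gene Slc4a1 in neither. Of 12 genes of other tissues, 4 had one in the replicate 1 list and 2 in that of replicate 2.

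Promoters of the ribosomal protein genes were open with 1 exception. A peak centre within 1000 bp of an annotated start was found for 77 of 78 genes in the replicate 1 list (98.7%, Wilson 95% interval 93.09 to 99.77%, counting error over genes), where 58.3% of all protein-coding genes had one. In the replicate 2 list the same count was 77 of 78, beside 49.4% of all genes, and 77 of 78 had a peak in both lists, beside 49.4%. A hotspot lay over the start itself in 77 genes in the replicate 1 list and in 74 in that of replicate 2, beside 51.8% and 42.4% of all genes. Other complexes of many subunits had similar shares: 78 and 76 of 78 mitochondrial ribosomal protein genes, and 37 of 40 proteasome subunit genes in each list. The exception was Rps27rt (ENSMUSG00000050621.7, chr9:114982366-114982739), a gene of 1 exon named as a retrogene, an intronless copy, of Rps27. Its nearest replicate 1 peak, with a score of 33, lay upstream at -11511 bp, and its nearest replicate 2 peak, with a score of 24, lay 25789 bp downstream. Of all 1368 protein-coding genes with a single exon, 27.27% had a promoter peak in the replicate 1 list and 19.59% in that of replicate 2. Within 500 bp of the Rps27rt start, 59.07% of 32 bp words occur once in the genome. The same share was at least 80% for 74 of the 78 genes, and all 32 bp words of the replicate 2 peak were unique for 72 of 77.

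Peak scores placed the ribosomal protein promoters in the upper middle of all open promoters. The median score was 142 in the replicate 1 list, where all genes with a promoter peak had a median of 139, and 68 in the replicate 2 list, beside 63. In the replicate 2 list 59.7% of the 77 lay above the median of all genes, and in the replicate 1 list 67.5%. Scores spread more widely in the replicate 2 list, from 37 to 111, than in the replicate 1 list, from 123 to 150, which is near the top of the scale. The order of the genes was similar in both lists (Spearman rho 0.79 across 77 genes of the same 2 lists, a description with no test). The large subunit genes had a median of 71 in the replicate 2 list and the small subunit genes 66, and both subunits ran over nearly the whole range.

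**Figure D1:**
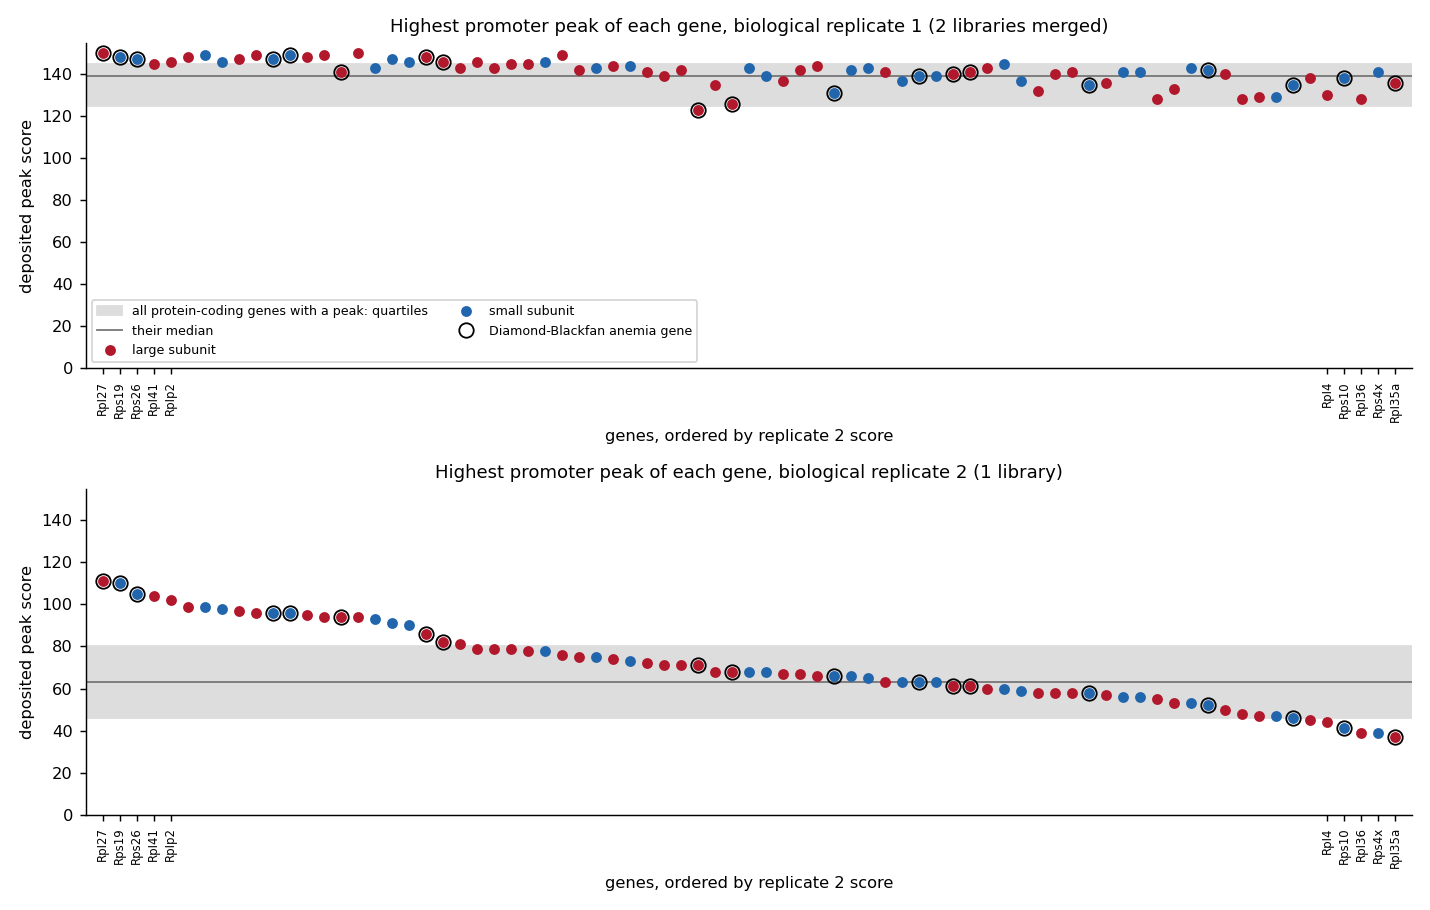
Deposited score (vertical axis, no unit) of the highest promoter peak of each of the 77 ribosomal protein genes with one, ordered by replicate 2 score, in the replicate 1 list (top) and the replicate 2 list (bottom). Black rings mark genes of Diamond-Blackfan anemia, the 5 highest and 5 lowest in the replicate 2 list are named, the band gives the quartiles of all protein-coding genes with a promoter peak, and replicate 2 scores run from 111 for Rpl27 to 37 for Rpl35a.

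The highest replicate 2 scores belonged to Rpl27, Rps19, Rps26, Rpl41 and Rplp2. Rpl27, which encodes a protein of the large subunit (ENSMUSG00000063316.13, peak at chr11:101442176-101442325), scored 150 in the replicate 1 list and 111 in that of replicate 2. Rps19, a small subunit protein whose gene is the one most often mutated in Diamond-Blackfan anemia (ENSMUSG00000040952.16, peak at chr7:24884336-24884485), scored 148 and 110. Rps26 scored 147 and 105, Rpl41, which encodes the shortest ribosomal protein, 145 and 104, and the stalk gene Rplp2 146 and 102. All 5 stood above the upper quartile of all promoters with a peak in the replicate 2 list, which was 80. At the other end stood Rpl35a (136 and 37), Rpl36 (128 and 39), Rps4x (141 and 39), Rps10 (138 and 41) and Rpl4 (130 and 44), each below the lower quartile of 46. In the replicate 2 list these 5 ranked between the 15.1 percentile (Rpl35a) and the 22.7 percentile (Rpl4) of all promoters with a peak, and in the replicate 1 list between the 28.2 percentile (Rpl36) and the 57.9 percentile (Rps4x).

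The bases under these peaks are shown so that the sites with the highest and the lowest scores can be compared letter by letter. Each line gives the longest piece of each replicate 2 peak outside annotated exons, from the GRCm38 reference (mm10), 5′ to 3′ on the strand of the gene, with any match to the 12 motifs described below in capitals. The peaks of Rps10 and Rpl4 lie wholly inside annotated exons and are not shown.
Rpl27, chr11:101442176-101442297: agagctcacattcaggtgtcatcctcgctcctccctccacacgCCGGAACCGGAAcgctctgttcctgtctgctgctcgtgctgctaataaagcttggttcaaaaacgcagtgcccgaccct
Rps19, chr7:24884336-24884370: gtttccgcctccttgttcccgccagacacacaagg
Rps26, chr10:128626756-128626905: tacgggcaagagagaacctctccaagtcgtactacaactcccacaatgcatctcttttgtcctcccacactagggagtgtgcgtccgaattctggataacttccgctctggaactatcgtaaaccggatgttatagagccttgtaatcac
Rpl41, chr10:128549306-128549325: ctcagtcccatactggaaac
Rplp2, chr7:141447196-141447345: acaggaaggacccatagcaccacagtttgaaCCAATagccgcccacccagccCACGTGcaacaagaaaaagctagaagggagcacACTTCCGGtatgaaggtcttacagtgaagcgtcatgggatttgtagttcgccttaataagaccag
Rpl35a, chr16:33056256-33056405: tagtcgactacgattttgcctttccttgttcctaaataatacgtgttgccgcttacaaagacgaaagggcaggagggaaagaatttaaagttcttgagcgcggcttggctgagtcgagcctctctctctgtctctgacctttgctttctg
Rpl36, chr17:56613276-56613415: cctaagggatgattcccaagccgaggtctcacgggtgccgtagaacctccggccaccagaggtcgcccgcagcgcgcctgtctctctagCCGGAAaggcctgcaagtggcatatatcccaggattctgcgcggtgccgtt
Rps4x, chrX:102189395-102189465: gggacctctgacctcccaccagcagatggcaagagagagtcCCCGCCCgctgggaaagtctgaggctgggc

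Among the highest, Rpl27 holds a pair of adjacent CCGGAA matches, the core that factors of the ETS family bind, and Rplp2 holds a CCAAT box, the E-box CACGTG and the longer ETS letters ACTTCCGG. No match to the 12 motifs was found in the whole 150 bp peaks of Rps19, Rps26 and Rpl35a. The piece of Rpl41 is 20 bases long, and its whole peak holds the longer ETS letters, their core and the SP/KLF box. The ETS core is also present in Rpl36, and the letters in capitals in Rps4x are GGGCGGG, the site of SP and KLF factors, read on the other strand. Counted over whole peaks, the ETS core was present in 3 of the 5 with the highest scores and in 4 of the 5 with the lowest, Rpl36, Rps4x, Rps10 and Rpl4. A match is a description of the letters and no measurement of binding.

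The 19 genes reported in Diamond-Blackfan anemia had promoter peaks in both lists and covered the whole range of scores. Their median was 141 in the replicate 1 list and 68 in that of replicate 2, the latter equal to that of all 77. Besides Rpl27, Rps19 and Rps26, the genes Rps29 (149 in replicate 1 and 96 in replicate 2), Rps27 (147 and 96), Rpl15 (141 and 94), Rpl18 (148 and 86) and Rpl11 (146 and 82) stood above the replicate 2 upper quartile of all genes. Rps28, whose protein sits in the small subunit, scored 142 and 52, Rps24 135 and 58, Rpl31 140 and 61, Rpl35 141 and 61, Rps7 139 and 63, Rps15a 131 and 66, and Rpl26 126 and 68. Rpl5 and Rpl11, which bind the 5S rRNA and together hold the p53 regulator MDM2 when ribosome assembly fails, scored 71 and 82 in the replicate 2 list and 123 and 146 in the replicate 1 list. Rpl5 was the lowest of all 77 in the replicate 1 list. Rpl23, which also binds MDM2, scored 137 and 67. Rps14, the gene whose human counterpart is lost in the 5q- syndrome, an anemia with a deletion of part of chromosome 5, scored 145 in the replicate 1 list and 60 in that of replicate 2. The 4 genes of the stalk, which contacts elongation factors, scored 79 (Rplp0), 79 (Rplp1), 102 (Rplp2) and 58 (Rpl12) in the replicate 2 list.

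Peaks sat just upstream of the start, and most of them within 150 bp of it. The median position of the peak centre was -63 bp to the nearest annotated start in both lists (order-statistic 95% intervals -83 to -44 bp and -74 to -48 bp), where all genes had -52.5 and -54 bp. For comparison, mitochondrial ribosomal protein genes had -26.5 and -19 bp and proteasome subunit genes -46 bp in both lists. The centre lay upstream of the start in 83.1% of the ribosomal protein genes in each list, beside 71% and 76.5% of all genes, and within 150 bp in 90.9% and 96.1%, beside 61.7% and 68.7%. At -60 bp, where the profile was highest, 81.8% of the genes had a peak over the base in the replicate 1 list and 83.1% in that of replicate 2. The highest shares in the 2 lists were 59.41% and 66.05% for all genes with a peak. They were 80.77% and 81.58% for mitochondrial ribosomal protein genes, and 75.68% and 81.08% for proteasome subunit genes. The peaks lie on a 20 bp grid, which limits each position. The lists placed the peak alike, as they did in most genes: the same centre in 29 of 77 genes, within 20 bp in 55 (71.43%) and within 75 bp in 72 (93.51%). Of all 10795 genes with a peak in both lists, 66.72% were within 20 bp and 85.19% within 75 bp. Shifts of 150 bp or more between the lists were found in Rpl18, Rpl7 and Rps25.

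**Figure D2:**
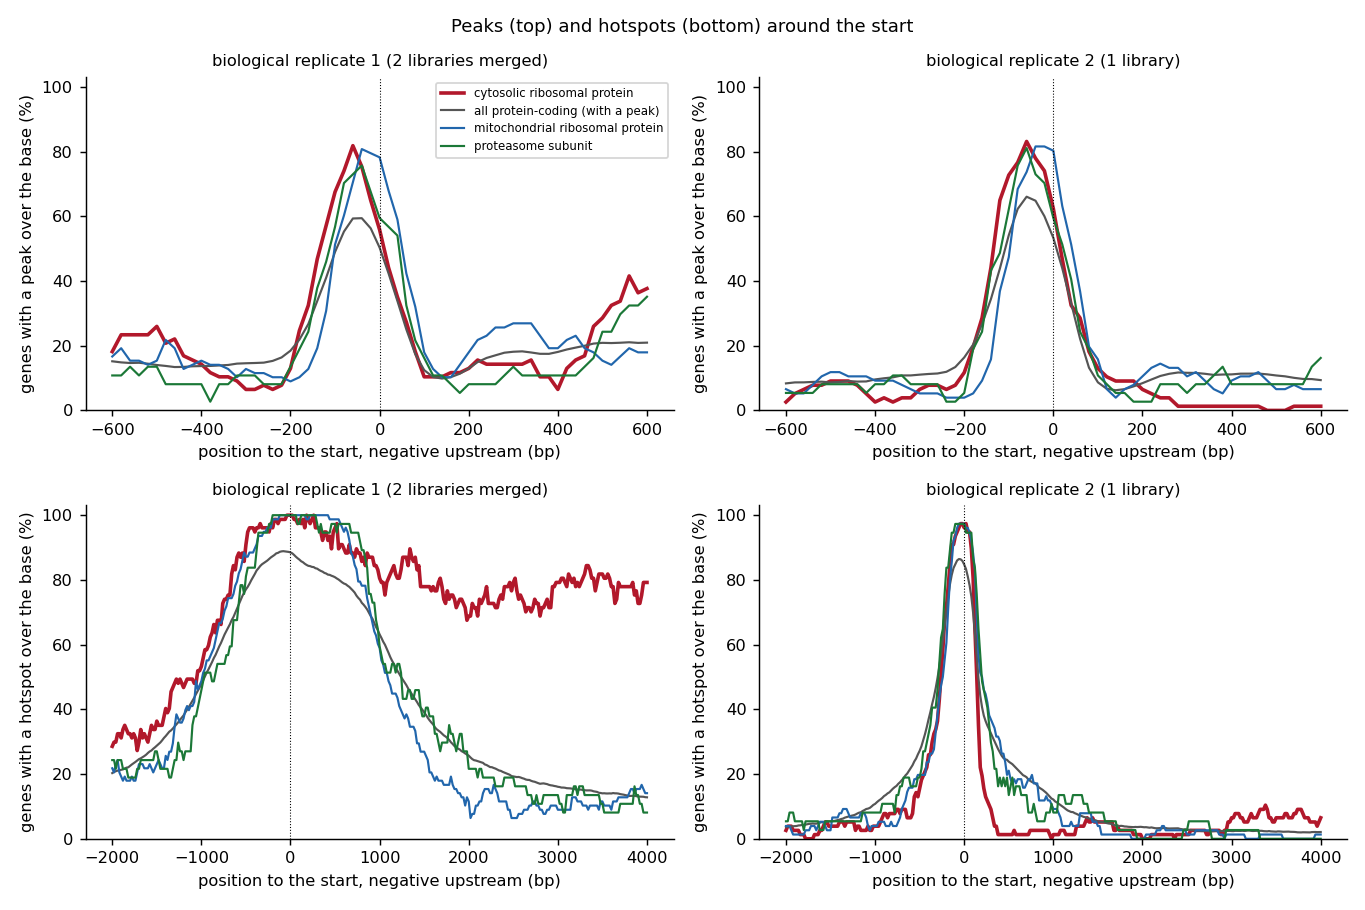
Per cent of genes with a peak (top) or hotspot (bottom) over each base, by position to the start in bp, for the replicate 1 list (left) and the replicate 2 list (right). The ribosomal protein genes (red) peak at -60 bp in both lists, lose hotspots within 300 bp past the start in the replicate 2 list, and keep them beyond 3000 bp in the replicate 1 list.

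A few genes had their highest peak elsewhere. Among the farthest upstream in the replicate 2 list were Rpl4 (-445 bp, and -405 bp in the replicate 1 list), Rpl32 (-283 and -303 bp) and Rplp1 (-148 and -188 bp). Rpl4 also had a replicate 2 peak at -5 bp with a score of 42, against 44 for the upstream one, which lay 36 bp from the start of the neighbouring gene Zwilch. The farthest downstream were Rpl35 (394 bp in replicate 2 and 374 bp in replicate 1), Rpl12 (91 and 31 bp), Rpl21 (60 and 120 bp) and Rpl41 (55 and -68 bp). Rpl35 is the only one of these whose highest peak stood over 150 bp past a start, and it had a second peak at -646 bp in the replicate 2 list with a score of 53, against 61. In 12 genes (15.38%, beside 8.997% of all) another protein-coding gene started on the opposite strand within 1000 bp upstream. The closest pairs were Rps28 with Ndufa7 at 10 bp, Rps27 with Rab13 at 44 bp, Rpl9 with Lias at 53 bp, Rpl15 with Nkiras1 and Rpl18 with Sphk2, each at 69 bp, and Rpl7a with Med22 at 87 bp. For 9 genes the replicate 2 peak lay closer to another gene's start than to their own, so that its score cannot be assigned to 1 of the pair. The 12 paired genes had a median replicate 2 score of 72.5 and the other 65 a median of 68.

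In the replicate 2 list the open stretch was short on both sides of the start. The hotspot that holds the promoter peak had a median width of 400 bp (order-statistic 95% interval 366 to 448 bp) in the ribosomal protein genes and 495 bp in all genes, and in the replicate 1 list 1491 bp (1304 to 1719 bp) beside 1907 bp. The median edges of the replicate 2 hotspots lay at -261 and 134 bp, beside -308 and 170 bp in all genes, so that both edges lay closer to the start. At 200 bp upstream in that list, 71.4% of ribosomal protein genes and 70.2% of all genes with a peak had a hotspot over the base, at 500 bp upstream 15.58% and 27.2%, and at 1000 bp upstream 3.896% and 10.78%. The short upstream side was shared by the other complexes: mitochondrial ribosomal protein genes had 19.74% and 3.947% at 500 and 1000 bp upstream, and proteasome subunit genes 18.92% and 8.108%. At 200 bp downstream the shares of ribosomal protein genes and of all genes were 19.5% and 40.65%, with 50% in mitochondrial ribosomal protein genes and 48.65% in proteasome subunit genes. At 500 bp downstream they were 1.3% and 23.8%. Between 100 and 300 bp past the start the median share of unique 32 bp words was 100%, and it was at least 80% in 69 of 78 genes. A further promoter peak was also less frequent: 37.7% of the ribosomal protein genes had at least 2 in the replicate 2 list, beside 57.9% of all genes, while in the replicate 1 list 98.7% had at least 2, beside 83.8%.

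The widest replicate 2 hotspots were those of Rpl10, an X-linked gene of the large subunit (1184 bp, and 2368 bp in the replicate 1 list), Rpl30 (884 and 2059 bp), Rpl7 (825 and 3110 bp) and Rps19 (820 and 1877 bp). The narrowest were Rps10 (150 and 1400 bp), Rpl12 (153 and 1532 bp), Rps4x (153 and 2492 bp) and Rps29 (213 and 159 bp). The order of widths was only loosely shared by the lists (Spearman rho 0.37 over 77 genes, a description). Rps29 was the narrowest in the replicate 1 list, and 59.28% of the 32 bp words within 500 bp of its start are unique. Within 1000 bp of the start, hotspots of any kind covered a median of 448 bp of the ribosomal protein genes in the replicate 2 list and 602 bp in all genes. In the replicate 1 list that order turned around, with 1801 bp against 1717 bp. Mitochondrial ribosomal protein genes had 582 bp in the replicate 2 list and proteasome subunit genes 610 bp, and both sets had 1802 bp in that of replicate 1. A single replicate 1 hotspot lay there in 16 of 77 ribosomal protein genes, a count that was not made over all genes.

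In the replicate 1 list hotspots covered most of the gene past the promoter in most of the ribosomal protein genes. From 1000 bp past the start to the annotated end, a median of 79.4% of the bases lay inside replicate 1 hotspots in the 71 ribosomal protein genes with at least 500 bp of such sequence (order-statistic 95% interval 67.7 to 83.1% of the median). All genes with a promoter peak had a median of 7.35%, other genes of 1500 to 5000 bp with one 15.1%, mitochondrial ribosomal protein genes 6.88% and proteasome subunit genes 4.6%. The cover was in pieces: 350 replicate 1 hotspots overlapped these stretches, the gene bodies, of the ribosomal protein genes, with a median width of 459 bp. At 50 bp before the annotated end 49.3% of the ribosomal protein genes had a hotspot over the base. Over 50% of the body was covered in 60 of 71 ribosomal protein genes. The share was 2.67% of all genes with a body of that length and 4.14% of those with a promoter peak. This measure was chosen after the profiles around the start had been seen. The 7 genes too short for it were Rpl36, Rpl41, Rplp1, Rps21, Rps27, Rps27rt and Rps29.

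The genes named for their cover were chosen after the values were seen. The gene with the most complete cover was Rpl32, a large subunit gene on chromosome 6, with 98.4% of its body inside replicate 1 hotspots and 0% inside replicate 2 hotspots. Rpl38, whose loss in mice alters the skeleton, had 97.9% and 0%, and Rpl31 97.3% and 0%. Among the genes of Diamond-Blackfan anemia, Rpl35a had 95.6% in the replicate 1 list, Rps7 92.9% and Rps19 87.7%, and the median of the 17 that could be measured was 83.8%. Rpl19 stood at the other end with 7.44%, followed by Rpl7 with 15%, Rpl22 with 26.7% and Rpl27, the gene with the highest replicate 2 promoter score, with 31.9%. Cover of the body did not follow the promoter score within the list (Spearman rho -0.14 across 71 genes) or the length of the gene (rho -0.02). These correlations are descriptions across genes that share 1 list.

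Introns were covered more completely than exons. In the replicate 1 list the median was 89.1% for the intronic bases of 69 genes and 50.1% for the exonic bases of 71, and introns stood above exons in 56 of the 69 genes that have both, beside 67.8% of 12103 genes with a promoter peak. In all genes with a promoter peak the medians were 7.44% and 2.49%. The exons of ribosomal protein genes have many copies elsewhere as processed pseudogenes: a median of 52.99% of their 32 bp words occur once in the genome, against 97.56% of the words in their introns, 95.8% in exons of mitochondrial ribosomal protein genes and 99.09% in exons of proteasome subunit genes. How far this sets the gap between exons and introns was not tested. In the 19 genes whose body has at least 90% unique words, the median cover was 87.7%. Across the 71 genes cover was higher where more of the words are unique (Spearman rho 0.51, a description across genes that share 1 list), and the part of uniqueness in the cover was not tested.

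Hotspots also covered much of the stretch past the annotated end. In the 2000 bp beyond it, the median cover was 93.5% in the replicate 1 list, beside 0% in all genes with a promoter peak and 3.3% in other genes of 1500 to 5000 bp. At 800 bp past the end, where the share was highest, 94.37% of the genes had a hotspot over the base. The share fell from 83.1% at 2000 bp to 54.93% at 3000 bp, 38.03% at 4000 bp and 21.13% at 5000 bp, where all genes with a promoter peak had 14.31%. On the other side of the gene, in the 2000 bp that end 1000 bp before the start, the median cover was 14.5%, beside 10% in all genes, so the extended cover lay on the transcribed side. Cover past the end exceeded that of the upstream side in 66 of 71 genes, a count that was not made over all genes. In the 51 genes with no start of another protein-coding gene near the body or the stretch past the end, the medians were 79.6% for the body and 89.5% past the end.

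**Figure D3:**
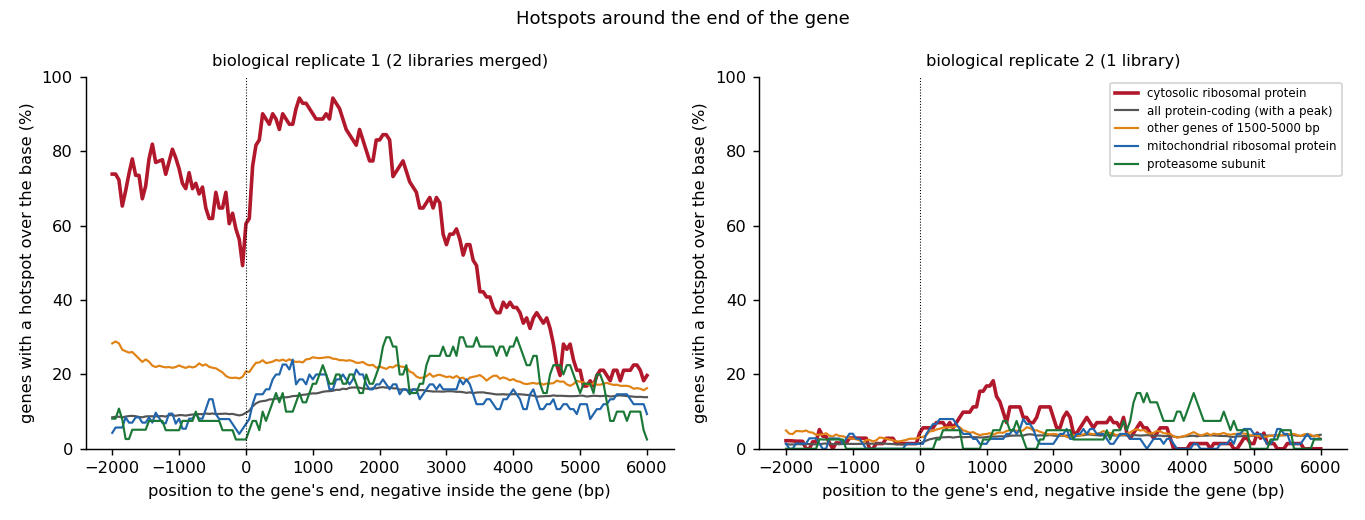
Per cent of genes with a hotspot over each base, by position to the annotated gene end in bp, in the replicate 1 list (left) and the replicate 2 list (right) for 5 sets of genes. The ribosomal protein genes (red) reach 94.37% at 800 bp past the end in the replicate 1 list and fall to 21.13% at 5000 bp, and in the replicate 2 list they reach 18.31% at 1100 bp.

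The replicate 2 list showed next to none of this inside the genes. The median cover of the body was 0%, beside 0.893% in all genes with a promoter peak, 54 of 71 genes (76.1%) had no hotspot there, and the highest was 30.6% in Rps26, followed by Rpl8 with 22.7%. In other genes of 1500 to 5000 bp with a promoter peak the median was also 0% and 73% had none, and in all genes with one 34.7% had none. None of the 71 was covered over 50%, beside 0.0775% of all genes and 0.132% of those with a promoter peak. Past the end, 38 of the 71 genes (53.5%) had no replicate 2 cover, beside 83.3% of all genes with a promoter peak and 77.4% of the other genes of 1500 to 5000 bp, and the largest shares were those of Rplp0 (63.8%), Rpl3 (60%) and Rps15 (55%), named after their values were seen. At 1000 bp past the end 16.9% of ribosomal protein genes and 3.15% of all genes with a promoter peak had a replicate 2 hotspot. The replicate 1 list also held peaks in these stretches. At least 1 replicate 1 peak was centred in the 2000 bp past the end in 71 of 71 genes, beside 37% of all genes with a promoter peak. At least 1 replicate 2 peak was centred there in 31 of 71, beside 15.5%. Inside the bodies there were 1.72 replicate 1 peaks per kb, with a median score of 74, and 0.12 replicate 2 peaks per kb. Other genes of 1500 to 5000 bp with a promoter peak had 0.542 and 0.121 peaks per kb. The bodies begin 1000 bp past 1 start per gene, so that peaks at other annotated starts are counted in them. In Rpl17, Rpl18, Rps10 and Rps14 the replicate 1 promoter peak itself lay in the body, with scores of 133, 148, 138 and 145. The replicate 1 list rests on 2 merged libraries and is longer, and what the lists owe to depth, to merging and to the cells cannot be told apart. When the replicate 1 hotspots were limited to as many as the replicate 2 list has, the median cover of the body was 49.97%, beside 4.75% in all genes with a promoter peak. Those kept had the highest −log10 q-values. Ties, as at the cap of 100, went to the wider hotspot, which favours cover.

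**Figure D4:**
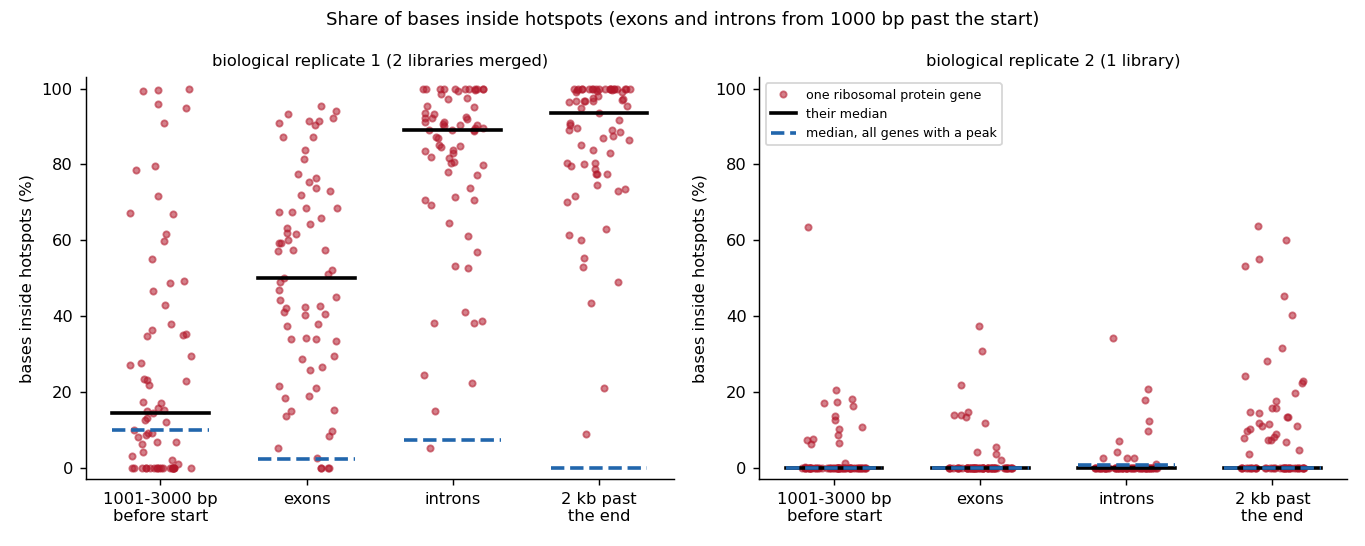
Per cent of bases inside hotspots in the replicate 1 list (left) and the replicate 2 list (right), 1 point per ribosomal protein gene, with their median (black) and the median of all genes with a promoter peak (dashed blue). In the replicate 1 list the medians rise from 14.5% before the start to 50.1% in exons, 89.1% in introns and 93.5% past the end, and in the replicate 2 list those medians are 0%.

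Sequence around the starts was searched on both strands, from 250 bases before to 50 after 1 start per gene, for 12 motifs. Factors of the ETS family such as GABP were represented by ACTTCCGG and by its shorter core CCGGAA. The factor YY1 was represented by AANATGGCG and AAGATGGC, and NRF1 by GCGCATGCG. The box bound by SP and KLF factors was searched as GGGCGGG. The box bound by NFY was searched as CCAAT, and the TATA box, which positions the start in some promoters, as TATAAA. The E-box of MYC and USF was searched as CACGTG, and the site of the erythroid factor GATA1 as AGATAA. The site of ZBTB33 was searched as TCTCGCGAG and the cAMP response element (CRE) as TGACGTCA. ACTTCCGG includes CCGGAA on the other strand, and the 2 YY1 patterns overlap in most of their letters. The ETS core was present in 35 of 78 ribosomal protein promoters (44.9%, Wilson 95% interval 34.3 to 55.9%) and in 18% of all protein-coding promoters (17.5 to 18.6%). TCTCGCGAG was present in 8 (10.3%, 5.29 to 19%) and in 0.911% of all (0.793 to 1.05%). Inside the replicate 2 peaks, which compares open promoters with open promoters, the shares were 41.6% against 22.4% for the ETS core and 10.4% against 1.34% for TCTCGCGAG. ACTTCCGG was present in 16.7% of ribosomal protein promoters (10 to 26.5%) and in 4.97% of all (4.69 to 5.27%). In the replicate 2 peaks it stood at 11.7% (6.27 to 20.7%) and 7.02% (6.56 to 7.52%), where the intervals overlap. The GATA letters were found in 7.69% of ribosomal protein promoters and 9.82% of all, GGGCGGG in 37.2% and 33.4%, and CCAAT in 30.8% and 38.7%, in each case with overlapping intervals. From 100 bases before to 100 after the start the GATA letters were found in 1.28% and 5.15%, and inside the replicate 2 peaks in 2.6% and 4.49%. A TATA box was present in 10.3% and 12.5%, the E-box in 11.5% and 7.78%, the NRF1 letters in 2.56% and 2.55%, and the CRE in 6.41% and 2.52%. AANATGGCG was present in 8.97% (4.42 to 17.4%) and in 3.06% of all (2.84 to 3.29%), and inside the replicate 2 peaks in 5.19% (2.04 to 12.6%) and 2.7% (2.41 to 3.03%), where the intervals overlap. In 14 of the 78 promoters none of the 12 was found, a count that was not made over all genes. The 34 genes with the ETS core and a peak had a median replicate 2 score of 73, and the 43 without it 67.

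**Figure D5:**
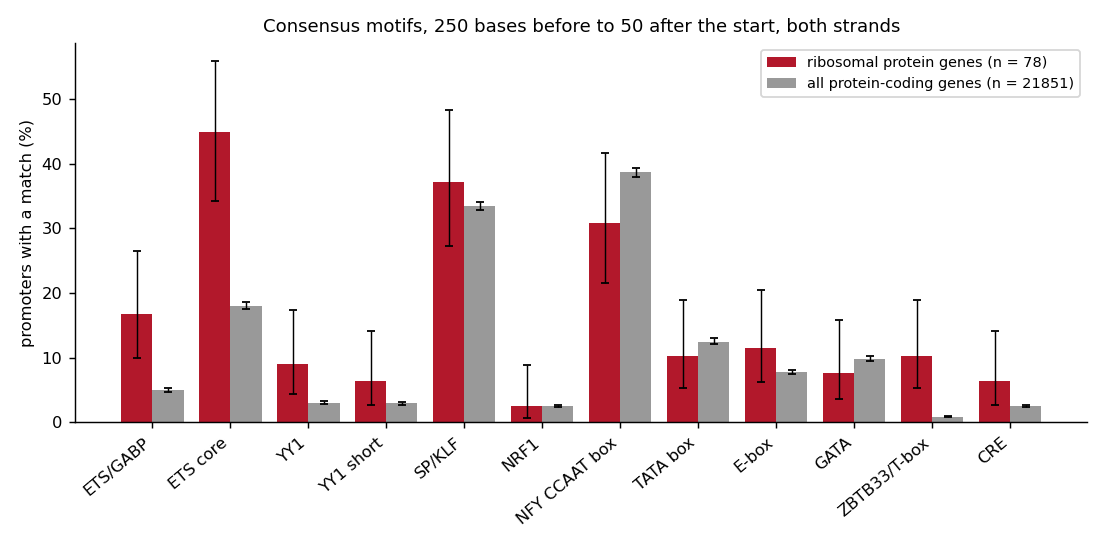
Per cent of promoters with a match to each motif (bars from 0), in 78 ribosomal protein genes (red) and 21851 protein-coding genes (grey), with Wilson 95% intervals that cover counting error over genes. The ETS core stands at 44.9% against 18% and TCTCGCGAG (labelled ZBTB33/T-box) at 10.3% against 0.911%.

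TCTCGCGAG reads nearly the same on both strands, and the letters around it differ from gene to gene. Shown are 29 bases from the replicate 2 peaks of 5 genes that hold it, from GRCm38 on the strand of the gene, with the matches of either strand in capitals.
Rpl10a, chr17:28328524-28328552: aacgggcaacTCTCGCGAGAacgcgggct
Rpl12, chr2:32961648-32961676: ggccagcggtTCTCGCGAGAgctgagctt
Rpl26, chr11:68901530-68901558: gctccgagacTCTCGCGAGAtctcgcggc
Rps28, chr17:33824545-33824573: ccgcgtgcggTCTCGCGAGAgcgaaagtg
Rps6, chr4:86857400-86857428: cgccggctgtTCTCGCGAGAacttagagc

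In all 5 the match extends by an A to the full palindrome. Their replicate 2 scores were 45 (Rpl10a), 58 (Rpl12), 68 (Rpl26), 52 (Rps28) and 56 (Rps6). Of these, 4 lay below the median of all 77 genes and Rpl26 lay on it. These genes were chosen for the motif after its count was seen.

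Within 50 bases of the start many ribosomal protein genes carried a run of pyrimidines on the coding strand. A run of at least 8 consecutive C or T within 50 bases of the start was present on the coding strand in 61.5% of the 78 genes and on the opposite strand in 21.8%, where all protein-coding genes had 34.9% and 37%. For runs of at least 10 the shares were 38.5% and 10.3%, against 17.5% and 18.1%. Mitochondrial ribosomal protein genes had 11.5% and 5.13% for runs of at least 10, and proteasome subunit genes 17.5% and 20%. mRNAs of these genes are known to begin with a 5′ terminal oligopyrimidine tract, through which the kinase mTOR sets the translation of these mRNAs. The windows from 15 bases before to 15 after the annotated start are shown for the 8 longest among 11 genes with a run of at least 10 that reaches within 5 bases of it, from GRCm38, with the run in capitals where it falls in the window.
Rpl32, chr6:115808733-115808762: gcgccgccgccgCCTCTTCCTTCTTCCTCg
Rpl22, chr4:152325838-152325867: gcgcctgcgtagtgcgCCCCCCTCCCTTTC
Rpl26, chr11:68901568-68901597: aaccggaagtcgcgtgtagTTCTCTTTCCT
Rpl4, chr9:64173360-64173389: agtgacaagTCTTTCCTTTTCCTgtgggag
Rpl31, chr1:39367827-39367856: gccacaCCTCTTCCTCCTCgcctccccgtg
Rpl37a, chr1:72711275-72711304: gcattgcgTCCCTTCCTCTTCggacttggg
Rpl29, chr9:106429439-106429468: gaaCCTTTTTTCTCCgccagcagtgaggga
Rpl37, chr15:5116630-5116659: tggcgggggtgCTTTCTCTTCCggtctctt

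The runs of Rpl32, Rpl4, Rpl31, Rpl37a and Rpl37 span the annotated start, which in each window lies between the first 15 bases and the rest. The longest runs within 50 bases of a start were those of Rpl7a (21 bases) and Rpl41 (19 bases), which lie away from the annotated start. Of all 77 genes, 62.34% had a replicate 2 peak over the start base and 12.99% over the base 100 bp past it. The genes shown were chosen for their runs after these had been counted.

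Other genes of ribosome production were also open in both lists, and fewer of them had their bodies covered. All 38 genes of ribosome biogenesis, such as Ncl, Npm1 and Fbl, all 12 of RNA polymerase I and its factors, and all 13 further genes whose mRNAs carry the oligopyrimidine tract had a promoter peak in both lists, where 58.3% and 49.4% of all genes had one. Their median replicate 2 scores were 71, 62 and 77, beside 68 for the ribosomal protein genes. In the replicate 1 list hotspots covered a median of 7.96% of the body in the 36 biogenesis genes that could be measured, with Ncl (98.1%), Nop56 (78.2%) and Rrs1 (76.7%) as the highest, 5.71% in the 12 polymerase I genes, with Taf1d (80.2%) and Polr1c (62.8%) as the highest, and 16.4% in the 13 oligopyrimidine genes. Within the last group Eef2, the translocation factor of elongation, had 81.3%, Pabpc1, the poly(A)-binding protein, 80.6%, Hnrnpa1 60.1% and Eef1b2 58.8%, while Tpt1 had 1.81%. Gene length was not matched between these sets, and its part in the contrast was not tested. The ribosomal protein genes had a median length of 3266 bp, and all protein-coding genes 17380 bp. Rrs1 is 2048 bp long, Nop56 4884 bp and Ncl 14682 bp, while Tpt1 is 3433 bp long and Nip7, with 4.65%, 4055 bp. Of the members that are named otherwise and so fall outside the rule, Fau, which encodes a small subunit protein, had 64.5%, and Rack1, a signalling scaffold on the small subunit, 88.8%. In the replicate 2 list both had 0%.

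Of the 78 genes, 30 (38.46%) host at least 1 snoRNA within the gene on the same strand, 58 in all, beside 1.263% of all protein-coding genes. Whether each lies in an intron was not checked. The snoRNAs guide the modification of rRNA. Rpl4 hosts 5 and Rpl13a hosts 4. Promoter scores of the 30 hosts were close to those of the other 47 genes with a peak, with medians of 143 and 141 in the replicate 1 list and 69.5 and 68 in that of replicate 2. The paralogs of the l type that the rule leaves out had a promoter peak in 5 of 7 in the replicate 1 list and 4 of 7 in that of replicate 2. Rps27l (148 and 77), Rpl36al (144 and 78), Rpl7l1 (142 and 66) and Rpl22l1 (139 and 74) had one in both lists. Rpl3l, the form known from striated muscle, scored 47 in the replicate 1 list and had none in the replicate 2 list, and Rpl10l and Rpl39l, known from testis, had none in either.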

How the data were processed

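DNase-seq cleavage sites of MEL cells were mapped to mm10. Per the deposited notes, the lists of biological replicate 1 were called on an alignment merged from its 2 libraries and those of replicate 2 on its single library. The aligner, the caller and the read depth are not given in the sources used here. The deposited peak score, a whole number from 1 to 150 whose definition is not stated, was compared only within a list, and the deposited −log10 q-values of hotspots, capped at 100, only ranked them. The deposited peaks are 150 bp wide on a 20 bp grid. Exact repeats of a line were dropped.

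Starts, exons and ends come from GENCODE M21 basic, and sequence from GRCm38.p6, whose chromosome lengths match mm10. A promoter peak is centred within 1000 bp of any protein-coding start of a gene, and its score is that of the highest such peak. A 32 bp word was called unique if it occurs once in the genome on either strand. Shares have Wilson 95% intervals and medians order-statistic intervals, both covering counting error over genes only. With 1 list per biological replicate no test across samples was possible. Named are the genes without a peak, the 5 highest and 5 lowest replicate 2 scores, the 4 widest, narrowest, farthest upstream and farthest downstream sites of that list, and the fixed lists for anemia, MDM2 binding, 5q, the stalk and paralogs. Some items are not reported here. Members, lists and measures were chosen with earlier results of these data known. Computations used Python 3.11.15 with numpy 2.4.6, scipy 1.17.1, numba 0.67.0 and matplotlib 3.10.9 and were tested on simulated data. Alternatives varied windows, starts, list length, members, motif windows and the part of the gene.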

Additional observations from a re-analysis of the deposited data

How the results depend on the processing

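Over 22 results, 95 alternatives gave a value inside the reported 95% interval of the share or median, or for counts within 1.5 times, and 8 did not. The range for counts is wide beside 77 of 78 genes, so that their alternatives, which gave 73 to 82, could hardly fall outside it. The median replicate 2 cover of the body was 0% in the reported setting and in its alternatives. Of the 72 on promoter peaks, scores, positions and hotspot widths, 71 were inside, and the exception counted bases in hotspots within 1000 bp of 1 start in place of the replicate 1 hotspot width, which gave 1801 bp, beside 1717 bp in all genes. Of the 24 on motifs, 20 were inside intervals that are wide for rare motifs. In the replicate 2 peaks the shares of ribosomal protein genes were 2.6% for AAGATGGC, 5.19% for the TATA box and 2.6% for the GATA letters, and, inside their intervals, 5.19% for AANATGGCG and 1.3% for NRF1, and from 100 bases before to 100 after the start the GATA share was 1.28%. The share of the gene body in replicate 1 hotspots was 89.1% for introns only, 50.1% for exons only and 49.97% with hotspot lists of equal length. The cause of these moves was not tested. The alternatives for the hotspot bases and the gene body were chosen after seeing the data. No paired analysis was possible because each biological replicate has 1 list and there is 1 condition. The read depth behind both lists is unknown, so a missing peak means only that none was called.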

Other observations

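Processed pseudogenes of the ribosomal protein genes, the intronless copies scattered over the genome, were rarely open. Of 294 such copies with a name ending in -ps, 45 had a peak in the replicate 1 list (15.3%, Wilson 95% interval 11.6 to 19.9%) and 11 in the replicate 2 list (3.74%, 2.1 to 6.57%). All 10236 processed pseudogenes had 12.8% and 4.21%, within both intervals. Leaving out copies within 2000 bp of a protein-coding start gave 15.2% and 3.45% of 290 copies. Near-identical copies limit where reads can be placed, and their part in these counts was not tested. Among 1330 protein-coding genes of 1500 to 5000 bp with a replicate 1 promoter peak, 195 had over 75% of the body inside replicate 1 hotspots, and 32 of these were ribosomal protein genes, which make up 55 of the 1330. The promoters of ribosomal protein genes held a median of 65 CpG within 500 bp of the start, beside 43 in all protein-coding genes and 62 in those with a replicate 2 promoter peak.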
